A study of Mus musculus with 4 samples.

Results

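The E proteins and their Id inhibitors were followed through the deletion of Ikaros in double positive thymocytes, the immature T cells of the thymus that express both CD4 and CD8. The set consisted of every probe set with a single platform gene symbol that was Tcf3, Tcf4, Tcf12, Id1, Id2, Id3 or Id4. It came to 22 of the 45037 probe sets on the array, 14 for the 3 E protein genes and 8 for the 4 Id genes. Thymocytes from 4 mice were hybridised to Affymetrix mouse expression arrays, 1 array per mouse. All 4 mice were Ikf/f, which is read here as carrying a conditional (floxed) allele of Ikzf1, the Ikaros gene. In the 2 Ikf/f CD4-Cre+ mice (Cre-positive) a CD4-Cre transgene, in which Cd4 regulatory sequences drive Cre recombinase, is meant to delete it, and the 2 Ikf/f CD4-Cre- mice (Cre-negative) lacked the transgene. No Cre-positive mouse with intact Ikzf1 was among the samples, so an action of Cre alone and the loss of Ikaros cannot be told apart. The labels do not state the age or sex of the mice or how the cells were purified.

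E proteins are basic helix-loop-helix transcription factors that bind E-box DNA as dimers. Tcf3 encodes E2A (E12 and E47), Tcf12 encodes HEB and Tcf4 encodes E2-2. E2A and HEB drive T cell receptor gene rearrangement and hold thymocytes at the double positive checkpoint. Id proteins have the helix-loop-helix but no basic region, so they pair with E proteins and keep them off DNA. Id3 is induced by T cell receptor signals in thymocytes, Id2 is typical of innate lymphoid cells, effector T cells and dendritic cells, and E2-2 is the defining regulator of plasmacytoid dendritic cells.

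Expression values are RMA signals on the log2 scale, and differences are Cre-positive minus Cre-negative with the moderated standard error (SE) of limma. The targeted gene Ikzf1 differed by −1.53 ± 0.16 (SE, n = 2 per group) in its brighter probe set. That probe set read 12.40 and 12.08 in Cre-negative mice 1 and 2, against 10.80 and 10.62 in Cre-positive mice 1 and 2, so signal remained. The dimmer Ikzf1 probe set differed by −0.22. The double positive identity of the samples showed in 8 of 9 defining markers that had a probe set, whose mean signal was 12.15 and 12.22 in Cre-negative mice 1 and 2, against 11.89 and 11.98 in Cre-positive mice 1 and 2. Of these 8 markers, each by its brightest probe set, 6 were lower in the Cre-positive mice with no overlap between the groups, against 18.7% of 11639 genes. Their median difference was −0.21, with Cd1d1 lowest at −0.66, and 0 had an adjusted p under 0.05 in limma (2 at an unadjusted p under 0.05, against 19.4% of all genes). Array 2 of the Cre-negative group carried the Xist signal of a female (12.75, against 4.73 to 5.37 elsewhere). Cre-positive sample 2 carried granulocyte transcripts, with a mean of 6.64 over 7 markers against 4.55 to 4.64 on the other arrays.

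The 250 bases before the start of Id2, the member that rose, and of Id3, the other Id gene with signal, are shown from RefSeq (GRCm38.p6, 5′ to 3′ on the gene's strand). Capitals mark matches to the E-box, the letters CANNTG on either strand, since Id genes are partners of the proteins that read it.
Id2, chr12:25096093-25096342, minus strand: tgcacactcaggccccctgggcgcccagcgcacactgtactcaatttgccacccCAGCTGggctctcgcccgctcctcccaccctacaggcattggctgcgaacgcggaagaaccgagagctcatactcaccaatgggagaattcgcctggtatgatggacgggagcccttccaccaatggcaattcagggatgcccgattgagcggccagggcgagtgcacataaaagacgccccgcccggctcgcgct
Id3, chr4:136143572-136143821, plus strand: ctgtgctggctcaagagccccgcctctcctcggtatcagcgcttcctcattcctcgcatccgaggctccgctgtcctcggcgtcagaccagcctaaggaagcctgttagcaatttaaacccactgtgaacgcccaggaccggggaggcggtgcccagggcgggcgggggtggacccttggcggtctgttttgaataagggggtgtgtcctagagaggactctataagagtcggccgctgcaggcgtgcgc
The Id2 window held 1 E-box, whose first base lay 196 bases before the start, and the Id3 window held 0. E-boxes occurred in 66.2% of the 32851 RefSeq windows of this length. The letters GGGAA, the core of the motif that Ikaros binds, were searched on both strands and occurred in 56.2% of those windows. They were found in neither the Id2 nor the Id3 window, nor in those of Tcf3 and the 3 starts listed for Tcf12, and the Id4 window held 2 matches. Tcf3 had 1 E-box, 54 bases before its start, and 2 of the 3 Tcf12 windows had 1 each. These matches describe letters and not binding. Windows of 5 of the 7 genes were searched. Id1 and Tcf4 were not analysed here, and the search left out member windows on a set chromosome.

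Of the 22 probe sets, 17 had a mean over the 4 arrays at or above 4.76, the signal below which probe sets were not tested. These 17 belonged to 5 genes, with 3 probe sets for Tcf3, 5 for Tcf4, 5 for Tcf12, 3 for Id2 and 1 for Id3. The single Id1 probe set, all 3 Id4 probe sets and 1 of 6 Tcf4 probe sets were dimmer. A call required an adjusted p under 0.05 in limma over all 20967 probe sets tested. Of these, 1 was called, for Id2 (1 of 17), against 0.868% of all probe sets called and 0.639% called higher. At an unadjusted p under 0.05 there were 8 of the 17, against 21.2% of all. They were probe sets of Tcf4, Tcf12 and Id2 only, and probe sets of the same gene are not separate observations. Tested with 1 probe set per gene, 2 of 5 members had such a p in limma, as did 2397 of 11639 genes. The groups did not overlap for 11 of the 17, against 53.2% of all, with 9 higher (31.5% of all) and 2 lower (21.8% of all) in the Cre-positive mice. Of those 9, 5 were Tcf4 and 3 were Id2 probe sets, which share their target gene and are not separate observations. The median difference was 0.12 over the 17 and 0.04 over all probe sets tested. With 2 mice per group, an exact permutation test of any 1 probe set cannot give a p below 0.333, so each call rests on the spread shared across probe sets.

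**Figure D1:**
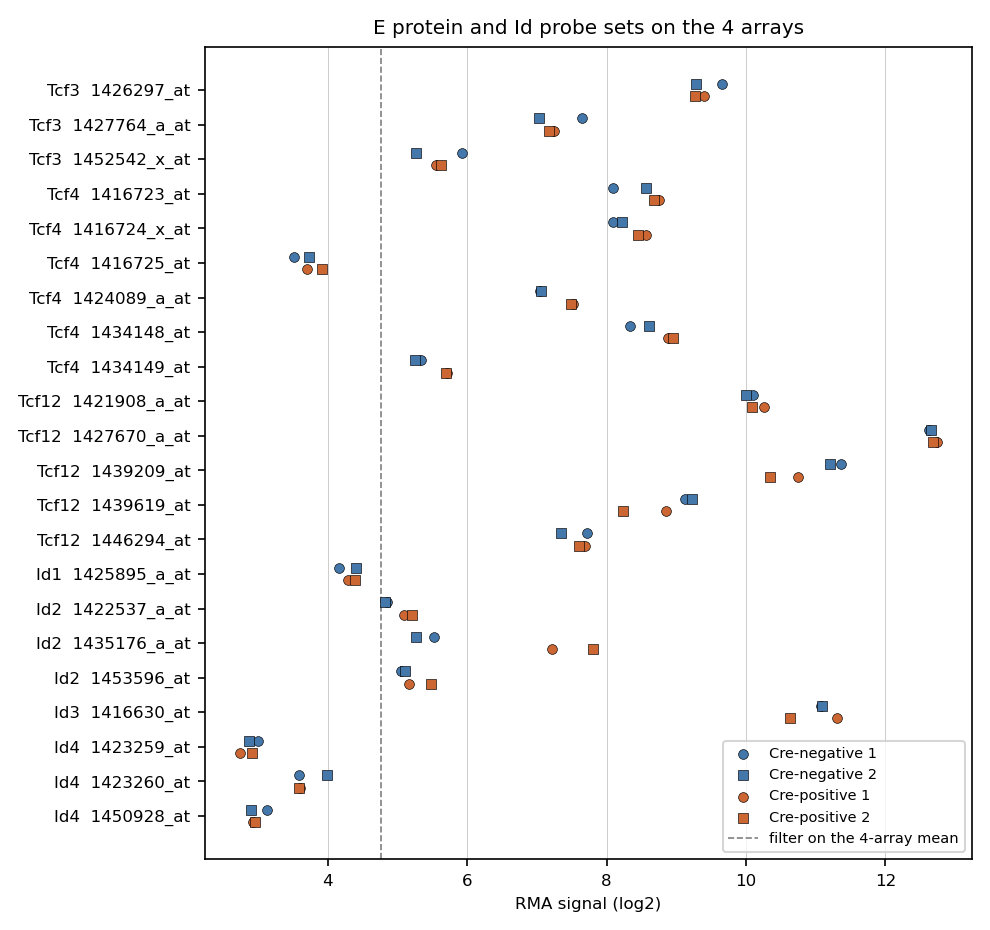
RMA signal (log2, horizontal axis) of all 22 probe sets on each array; blue points are Cre-negative and orange points Cre-positive mice, circles sample 1 and squares sample 2, and the dashed line is the filter at 4.76. The orange points of Id2 1435176_a_at, at 7.21 and 7.80, lie far to the right of the blue points at 5.52 and 5.26, while Id1 and Id4 lie left of the line.

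Id2 rose 4.34-fold in the Cre-positive mice by 1 of its 3 probe sets. Probe set 1435176_a_at read 5.52 and 5.26 in Cre-negative mice 1 and 2, against 7.21 and 7.80 in Cre-positive mice 1 and 2. Both Cre-positive arrays lay above both Cre-negative arrays. The means were 5.39 ± 0.18 and 7.51 ± 0.42 (SD, n = 2 each), and the difference was 2.12 ± 0.23 (SE; 95% interval 1.55 to 2.68; limma adjusted p = 0.0351). By size of difference it ranked 71 among the 20967 probe sets. The suffix _a_at marks probes that can recognise several transcripts of the same gene.

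The other Id2 probe sets were dim and differed little. Probe set 1422537_a_at, of the same type, read 4.85 and 4.82 without Cre, against 5.09 and 5.21 with it. Its difference was 0.31 ± 0.12 (SE; limma adjusted p = 0.221). Probe set 1453596_at, whose suffix marks probes designed for a single transcript, read 5.05 and 5.11 against 5.17 and 5.47. Its difference was 0.24 ± 0.15 (limma adjusted p = 0.411). In both, the groups did not overlap and the Cre-positive arrays were higher, but neither passed. The positions of the probes of the 3 probe sets were not used here.

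The Id2 call needed all 4 arrays. Removal of Cre-negative sample 1 left a difference of 2.25 and removal of sample 2 left 1.99. For the Cre-positive samples these values were 2.41 and 1.82. The adjusted p in limma then lay between 0.0877 and 0.157. Each of these fits compares a single array with 2 and takes its spread within groups from the other group alone, with 1 residual degree of freedom, so the lost call does not show a smaller difference. Tested with 1 probe set per gene, the brightest, Id2 had an adjusted p of 0.0248, where 1.37% of 11639 genes were called.

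Several markers of cells that carry Id2 also had higher signals in the Cre-positive mice. Of 10 macrophage and monocyte markers, 7 passed the filter and 1 of them, the lysozyme gene Lyz2, was called, against 0.885% of all genes by their brightest probe sets. At an unadjusted p under 0.05 there were 4 of the 7 (19.4% of all), and 5 were higher with no overlap between the groups (34.2% of all). The mean signal of the 10 was 4.81 and 4.88 in Cre-negative mice 1 and 2, against 5.46 and 5.38 in Cre-positive mice 1 and 2. The complement genes C1qa, C1qb and C1qc and the signalling adaptor gene Tyrobp, named after their values were seen, differed by 1.11, 0.49, 0.95 and 0.82. The receptor genes Csf1r and Adgre1 (F4/80), which define macrophages, differed by 0.19 and −0.03, though the 3 probe sets of Csf1r ranged from 0.19 to 1.21, and Cd68 lay below the filter on average. Of 9 dendritic cell markers with a probe set, 8 passed the filter and 0 were called in limma (0.885% of all genes), with 5 of the 8 at an unadjusted p under 0.05 (19.4% of all). Their mean signal was 5.58 and 5.33 without Cre, against 6.25 and 6.31 with it, with Itgax at 0.27, Flt3 at −0.16, Zbtb46 at −0.14 and Xcr1 below the filter. The 5 genes at the unadjusted threshold were H2-Aa, H2-Ab1, H2-Eb1, Cd74 and Irf8, and Itgax, Flt3 and Zbtb46 were not among them. The MHC class II gene H2-Aa, chosen after its values were seen, differed by 2.25, and its 4 probe sets ranged from 0.73 to 2.25. Of 9 natural killer and innate lymphoid markers with a probe set, 3 passed the filter. Of the 3, 1 was called in limma (0.885% of all genes) and 1 had an unadjusted p under 0.05 (19.4% of all). Both counts are the granzyme gene Gzma, which differed by 1.43. It was already bright without Cre, at 10.29 and 10.19, against 11.92 and 11.42 with it. Il2rb differed by 0.26 and Rora by 0.03, though the probe sets of Rora ranged from −0.29 to 0.45. Ncr1, Klrd1, Klre1 and Eomes lay below the filter. The calls of Lyz2 and Gzma were lost with any 1 array left out. The mean of the 9 natural killer and innate lymphoid markers was 4.84 and 4.89 without Cre, against 5.28 and 5.26 with it. Without Cre, C1qc read 4.48 and 4.69, Itgax 4.59 and 4.71 and Il2rb 4.69 and 4.66, all below the filter. These genes were tested only because of their signal in the Cre-positive mice. C1qb read 4.89 and 4.54 without Cre, the second also below the filter. Counts that include these genes are descriptions only. The part of macrophages, dendritic cells and natural killer or innate lymphoid cells in the Id2 signal was not tested. In bulk RNA, more cells of a type and more RNA per cell cannot be told apart.

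**Figure D2:**
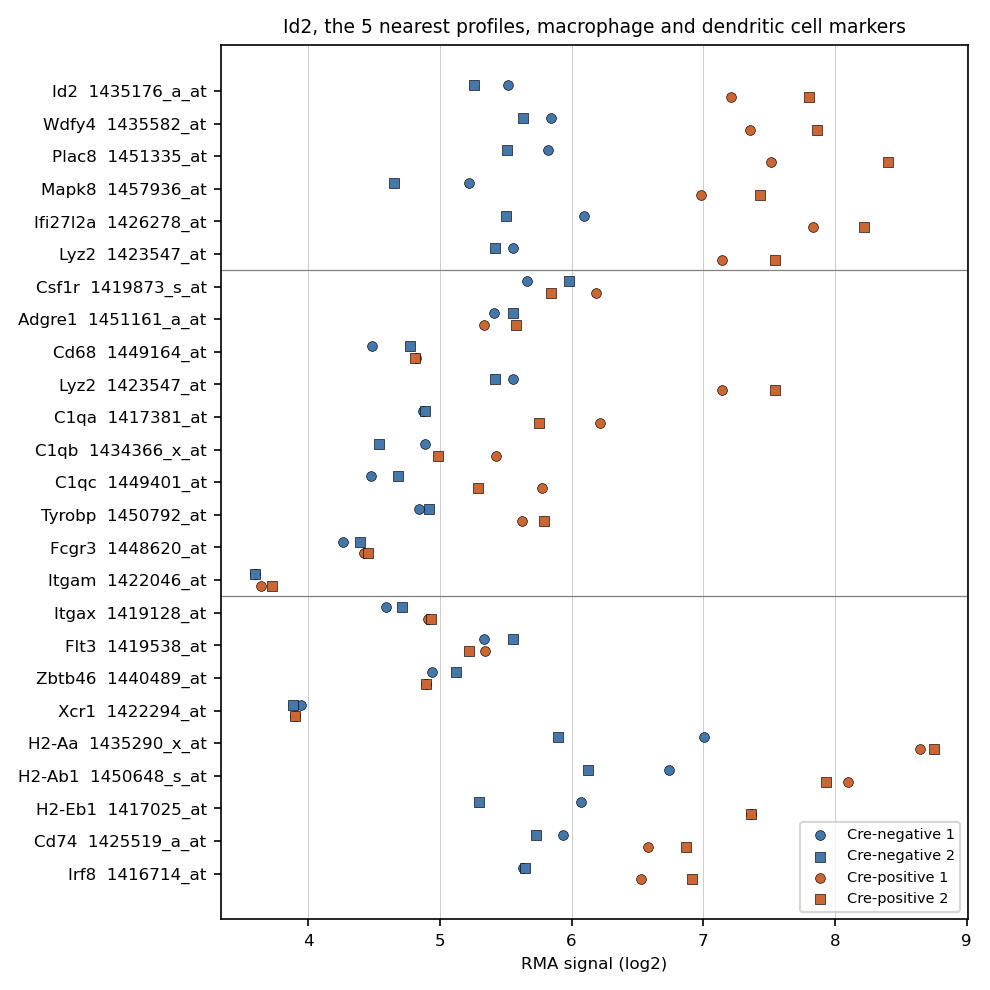
RMA signal (log2) of Id2 1435176_a_at with the 5 nearest profiles (top), 10 macrophage and monocyte markers (middle) and 9 dendritic cell markers (bottom), each by its brightest probe set; colours mark the groups and shapes the sample numbers. Lyz2 and H2-Aa separate by group as Id2 does, whereas the points of Csf1r, Adgre1 and Flt3 overlap.

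The genes whose profile was most like that of Id2 were found by the Euclidean distance between log2 values centred on each probe set's own mean over the 4 arrays. The nearest was Wdfy4, at a distance of 0.25, which read 5.85 and 5.63 without Cre, against 7.36 and 7.87 with it. Plac8 followed at 0.27, a probe set of the kinase gene Mapk8 at 0.29, the interferon-inducible gene Ifi27l2a at 0.30 and Lyz2 at 0.31. All 5 were low in both Cre-negative arrays and highest in Cre-positive sample 2, as Id2 was, which follows from how they were chosen. A likeness over 4 arrays describes the order and size of 4 values only.

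Id3, the Id gene that T cell receptor signals induce in thymocytes, was bright in every mouse, and its groups overlapped. Its single probe set read 11.07 and 11.10 in Cre-negative mice 1 and 2, against 11.30 and 10.63 in Cre-positive mice 1 and 2. The Cre-positive arrays lay on either side of the Cre-negative pair. The difference was −0.12 ± 0.23 (SE; 95% interval −0.70 to 0.46; limma adjusted p = 0.81). Without Cre-positive sample 2, the array with granulocyte transcripts, it was 0.22, and without Cre-positive sample 1 it was −0.46.

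Id1 and Id4, the remaining inhibitors, stayed near the bottom of the signal range. Id1 read 4.16 and 4.40 without Cre, against 4.30 and 4.39 with it, a difference of 0.07 with overlapping groups. The brightest Id4 probe set, 1423260_at, read 3.58 and 4.00 against 3.60 and 3.59, and the other Id4 probe sets lay between 2.74 and 3.13 on all arrays. Their differences were −0.19, −0.11 and −0.07. All lay below the filter, and with no filter none was called (limma adjusted p between 0.657 and 0.879).

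Among the E proteins, Tcf4 (E2-2) was slightly higher in the Cre-positive mice in each of its 5 tested probe sets, but none passed. Its brightest, 1434148_at, read 8.33 and 8.61 in Cre-negative mice 1 and 2, against 8.89 and 8.96 in Cre-positive mice 1 and 2, a difference of 0.45 ± 0.14 (SE; limma adjusted p = 0.162). Probe set 1424089_a_at read 7.05 and 7.05 against 7.52 and 7.49 and had the lowest adjusted p, 0.114, with a difference of 0.45 ± 0.12. Both Cre-positive arrays lay above both Cre-negative arrays in all 5. Probe set 1434149_at read 5.33 and 5.26 against 5.71 and 5.70, a difference of 0.41. The _x_at probe set 1416724_x_at, whose suffix marks probes that may also bind other genes, differed by 0.36, and 1416723_at by 0.38. The 5 differences spanned 0.36 to 0.45, a fold of 1.28 to 1.37, and 4 of them had an unadjusted p under 0.05. With any single array left out, all 5 stayed positive, between 0.15 and 0.62. The sixth Tcf4 probe set, 1416725_at, lay between 3.52 and 3.91 on all arrays, below the filter, and was not called with no filter (limma adjusted p = 0.623).

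Markers of plasmacytoid dendritic cells, which depend on E2-2, were set beside Tcf4. Of 8 with a probe set, 7 passed the filter and 0 were called in limma (0.885% of all genes), with 3 of the 7 at an unadjusted p under 0.05 (19.4% of all). Siglech, the most specific of them, read 5.40 and 5.03 without Cre, against 5.21 and 5.24 with it, a difference of 0.01. Pacsin1 differed by −0.20, while Bst2 and Irf7, which interferon also induces, differed by 1.34 and 0.61. Klk1, named after its values were seen, read 6.15 and 6.26 without Cre, against 6.73 and 6.71 with it. These values are from an _x_at probe set, whose probes may also bind other genes. The Klk1 difference was 0.51 ± 0.12 (SE), and its 4 probe sets ranged from 0.11 to 0.51. The part of interferon or of plasmacytoid dendritic cells in these values was not tested. The mean of the 8 was 5.87 and 5.71 without Cre, against 6.12 and 6.11 with it.

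Tcf12 (HEB) had probe sets with differences of opposite sign. Its brightest probe set, 1427670_a_at, read 12.62 and 12.65 in Cre-negative mice 1 and 2, against 12.74 and 12.69 in Cre-positive mice 1 and 2, a difference of 0.08 ± 0.12 (SE). Probe set 1421908_a_at differed by 0.12 and 1446294_at by 0.11, each with overlapping groups. In contrast, 1439209_at read 11.36 and 11.21 against 10.74 and 10.35, a difference of −0.74 ± 0.17 (95% interval −1.16 to −0.31; limma adjusted p = 0.0972). Likewise 1439619_at read 9.12 and 9.22 against 8.85 and 8.24, a difference of −0.63 ± 0.22 (limma adjusted p = 0.189). In both, each Cre-positive array lay below each Cre-negative array, with Cre-positive sample 2 lowest, and neither passed. Without Cre-positive sample 2 the differences were −0.54 and −0.33. RefSeq lists 3 separated promoter windows for Tcf12, and which transcripts each probe set reads was not examined.

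Tcf3 (E2A) did not differ between the groups beyond the spread of its arrays. The brightest probe set, 1426297_at, read 9.66 and 9.28 without Cre, against 9.40 and 9.27 with it, a difference of −0.14 ± 0.17 (SE; 95% interval −0.56 to 0.28; limma adjusted p = 0.688). Probe set 1427764_a_at differed by −0.13 ± 0.22 and 1452542_x_at by −0.01 ± 0.23. In all 3, Cre-negative sample 1 was the highest array and the groups overlapped. Without Cre-negative sample 1 the 3 differences were 0.050, 0.19 and 0.33.

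**Figure D3:**
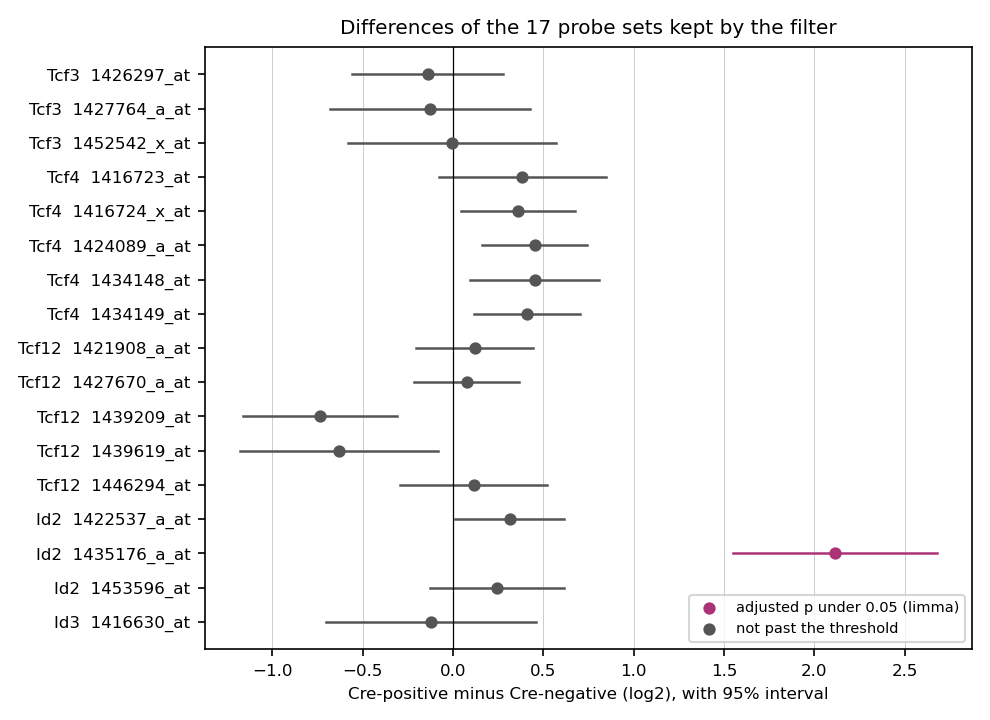
Cre-positive minus Cre-negative difference (log2) with its 95% interval from limma for the 17 tested probe sets. The interval of Id2 1435176_a_at runs from 1.55 to 2.68, those of 4 Tcf4 probe sets lie above 0 without an adjusted p under 0.05, and 2 of the 5 Tcf12 intervals lie below 0.

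**Figure D4:**
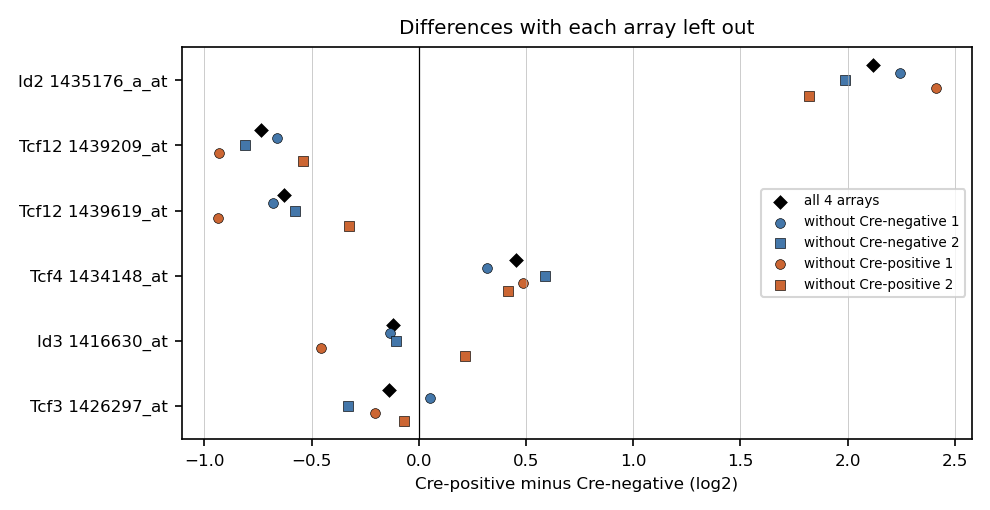
Difference (log2) of 6 probe sets with all 4 arrays (black) and with each array left out (blue and orange symbols, by the array removed). Id2 stays between 1.82 and 2.41 and Tcf12 1439209_at between −0.93 and −0.54, while Id3 and Tcf3 1426297_at change sign.

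Genes that E proteins are known to activate in lymphocytes differed in both directions. Of 11 listed, 10 had a probe set and 8 passed the filter. Of these, 0 were called in limma (3 at an unadjusted p under 0.05), against 0.885% of 11639 genes called and 19.4% at an unadjusted p under 0.05 by their brightest probe sets. The groups did not overlap for 3 higher genes (34.2% of all) and 3 lower genes (18.7% of all). The higher genes were Ptcra, the pre-T cell receptor alpha chain gene, which read 8.58 and 8.91 against 10.08 and 9.74 (1.16 ± 0.18 SE; limma adjusted p = 0.0591), Notch1 (1.10 ± 0.20) and its target Hes1 (0.62 ± 0.19). The recombinase gene Rag2 read 10.66 and 11.07 against 10.34 and 10.57, a difference of −0.41 ± 0.18, with Rag1 at −0.11 and Cd4 at −0.14. The median of the 8 was −0.0037, against 0.06 over all genes, and lay between −0.04 and 0.03 with 1 array left out.

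Of 5 genes that E proteins are known to restrain, 4 passed the filter and 1 was called, with 2 at an unadjusted p under 0.05 (19.4% of all genes). Il7r, the interleukin 7 receptor alpha chain gene, read 4.68 and 4.75 in Cre-negative mice 1 and 2, against 5.74 and 5.93 in Cre-positive mice 1 and 2, a rise of 1.12 ± 0.13 (SE; limma adjusted p = 0.0374; 0.747% of all genes were called higher). Both Cre-negative values lay below the filter at 4.76, so the probe set was tested only because of its signal in the Cre-positive mice, and its call is a description rather than support for the list. The other Il7r probe set differed by 0.32, and the call was lost with any single array left out. The cytokine signalling inhibitor gene Socs3 differed by 0.51 ± 0.16, the cell cycle kinase gene Cdk6 by 0.35 ± 0.16 and the transcription factor gene Gata3 by −0.12 ± 0.24. The median of the 4 was 0.43, and it was 0.61 with Cre-positive sample 1 left out and 0.28 with sample 2 left out.

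Factors linked to the induction of Id genes gave 0 calls among 14 tested of 18 listed in limma (0.885% of all genes). At an unadjusted p under 0.05 there were 4 of the 14 (19.4% of all). The list also holds the inhibitory Smad genes Smad6 and Smad7, of which Smad7 was tested, so its counts and median are not of inducers only. Egr1, Egr2 and Egr3, which link T cell receptor signals to Id3, were named after their values were seen. They differed by −0.08, −0.10 and −0.16, and their groups overlapped, as those of Id3 did. The other probe set of Egr2 differed by −0.24 and that of Egr3 by 0.19. Of the BMP and TGF-beta pathways, which act on Id genes through Smad proteins, Smad1 differed by 0.62 ± 0.13 (SE, limma adjusted p = 0.0844). Smad3 differed by 0.50 ± 0.12, though another Smad3 probe set differed by −0.11. The receptor gene Bmpr1a read 4.79 and 4.99 against 7.07 and 5.58, a difference of 1.44 ± 0.47, and its 6 probe sets ranged from −0.04 to 1.44. Bmpr2 differed by 0.70, with another probe set at −0.32. The list median was −0.08 and lay between −0.12 and 0.15 with 1 array left out, the last without Cre-positive sample 2.

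Proteins that work with E proteins gave 0 calls in limma, against 0.885% of all genes called. Of 10 cofactors 7 were tested (1 at an unadjusted p under 0.05, against 19.4% of all genes), with the acetyltransferase genes Kat2a at 0.63 ± 0.16 and Ep300 at 0.21 ± 0.12 (SE), the adaptor gene Ldb1 at −0.19 and the corepressor gene Cbfa2t2 at 0.11, whose 3 probe sets ranged from −0.75 to 0.11. Of 25 other helix-loop-helix partners, 24 had a probe set. Of these, 2 passed the filter (0 at an unadjusted p under 0.05 in limma, against 19.4% of all genes), Hand1 at 0.08 and Myod1 at −0.06. The partners of early thymocytes, Tal1 and Lyl1, lay below it on average, Lyl1 between 4.59 and 4.90.

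**Figure D5:**
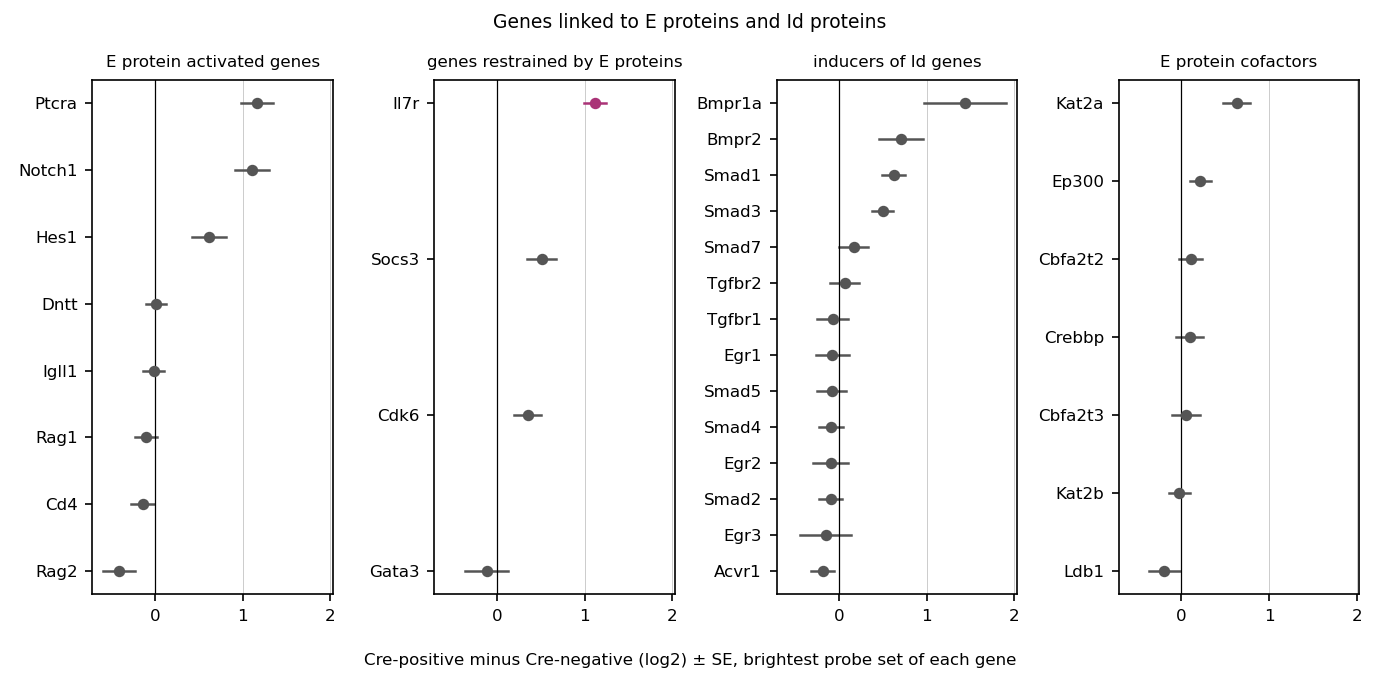
Cre-positive minus Cre-negative difference (log2) ± SE of the tested genes of 4 lists, each gene by its brightest probe set; the coloured point passed the adjusted threshold in limma. Ptcra and Notch1 lie above 1 while Rag2 lies below 0, and Il7r, at 1.12, is the called gene.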

How the data were processed

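Gene expression was measured in 4 thymocyte samples, 2 Cre-negative and 2 Cre-positive, each from its own numbered mouse. The deposited table holds log2 signals that the authors made with RMA, per the submitters' processing notes; no version is stated, and the base of the logarithm is taken from the scale RMA returns. Per the labels' protocols, RNA was labelled in a 2-cycle assay from several starting amounts, not tied to samples. Of 45037 probe sets, 34945 had 1 gene symbol, 932 several and 9160 none. Those with 1 symbol and a mean at or above their 40th percentile (4.76) were fitted with limma 3.58.1 (lmFit, eBayes) under R 4.3.3 (two-sided tests), and p-values were adjusted by the Benjamini-Hochberg method over 20967 probe sets. Residual degrees of freedom were 2, with 3.55 from the prior. Array data give no counts, so the number of arrays limits precision. List genes were counted by their brightest probe set. Every member was named. Of each pathway list, called genes and up to 4 genes with the smallest p were named. Of marker lists, the first 4 were named. Further list genes were named after their values were seen. Members and lists were chosen with earlier results of these data known. The sample numbers do not show pairing of mice. No sequences of probes were used. Figures were drawn with matplotlib 3.10.9.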

Additional observations from a re-analysis of the deposited data

How the results depend on the processing

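Over 13 alternatives the brightest Id2 probe set kept its direction, at 1.82 to 2.41. Its limma adjusted p lay between 0.0102 and 0.0396 under the 9 that used all arrays. Under the 60th percentile filter, 1 of the 9, the threshold was 6.40. Both Cre-negative values of the probe set, 5.52 and 5.26, lay below that threshold. The probe set was tested there only because of its signal in the Cre-positive mice, so that call is a description. Leaving out 1 array gave 0 called members (3 to 8 at an unadjusted p under 0.05) and 4 to 48 called probe sets in all, against 182 with all arrays. That total was 105 with the filter at the 60th percentile, which tests fewer probe sets, 302 with a mean-variance trend and 297 with robust eBayes; the cause of the last pair was not tested. With the sample number as a replicate block, 2 members were called, Id2 and Tcf12 1439209_at (−0.74, limma adjusted p = 0.0371), among 1475 probe sets. The numbers are not known to pair mice: deviations of same-numbered arrays correlated at 0.154, and with 2 pairs this does not settle it. Signs turned, among tested members, for uncalled values only. With 1 array left out, Tcf3 1426297_at lay between −0.33 and 0.050, 1427764_a_at between −0.44 and 0.19 and 1452542_x_at between −0.34 and 0.33, each positive without Cre-negative sample 1; the last was also 0.03 without Cre-positive sample 1. Tcf12 1446294_at lay between −0.073 (without Cre-negative sample 2) and 0.30, and Id3 1416630_at between −0.46 and 0.22 (without Cre-positive sample 2). Background correction was not varied, as the arrays' scanner files were not used here.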
